A study of Rattus norvegicus with 6 samples.

Results

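Macrophages are the resident phagocytes of the heart, and some may travel with the heart muscle cells when neonatal hearts are digested and plated. The 10 genes followed here are widely used macrophage markers: Cd68, Csf1r, Adgre1, Cd14, Aif1, Lyz2, Laptm5, Mrc1, Cd163 and Tyrobp. They were taken as every probe set of the array that the platform's gene table pairs with exactly 1 symbol, that symbol being a marker. Each marker had 1 such probe set, so that 10 of 15310 tested probe sets, and of 29215 on the array, are described. The cultures were primary cardiomyocytes from the ventricles of Sprague-Dawley rats aged 2 days, depleted of fibroblasts by pre-plating. For 24 h, 3 control samples received control serum-free medium and 3 hCT1 samples received human recombinant cardiotrophin 1 (hCT1, 0.5 nM), a cytokine of the IL-6 family, in serum-free medium. No transgene or deletion was named for either group. The growth entry of all 6 records names a hypertrophic agonist in the medium, while the treatment entry names plain control medium for the controls. Whether the samples of a group came from separate cultures is not given in the sources used here, and the spread behind every p-value may therefore be technical.

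Macrophages depend on the cytokines CSF1 and IL-34, which act through the receptor encoded by Csf1r, and on the lineage transcription factor PU.1, encoded by Spi1. Many of their surface receptors carry no signaling tail of their own and signal through small adaptors with an ITAM motif, such as the product of Tyrobp. Engulfed material goes to lysosomes, where proteins such as those of Cd68, Laptm5 and the secreted or lysosomal enzyme lysozyme are found.

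The values are log2 RMA values, a measure of array brightness per probe set in which 1 unit is a doubling. The brightness of a probe set also depends on its probes, so levels of different genes are not set against each other, and a percentile of signal only shows how near a probe set lies to the dim end of the array. In control samples the 10 markers lay between percentile 25.0 (Aif1) and percentile 76.0 (Lyz2) of all probe sets, and 6 of them lay above percentile 40. Of 14 pan-leukocyte genes, 9 lay below percentile 40, among them Ptprc, which encodes the phosphatase CD45 (percentile 23.2), and Itgam (23.0), while Cd48 (95), Rac2 (62.7) and Lcp1 (55.6) were the brightest. Of 5 lineage factors measured, Spi1 (36.8) and Irf8 (36.2) lay below percentile 40, and Cebpa (56.2), Maf (59.8) and Runx1 (83.6) above it. The table holds no detection calls, and it was therefore not settled here which of these values lie above background. The name macrophage marker is used for the gene list, and the presence of macrophages was not tested. In these bulk samples, differences in the number of macrophages, in RNA per macrophage and in the signal from other cells cannot be told apart.

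The 10 markers did not move as a block. Lyz2 was lower with hCT1 by limma (adjusted p under 0.05 over all 15310 probe sets), Laptm5 was higher, and 8 did not pass the test. The markers thus gave 2 calls among 10, beside 14.8% called in either direction over all tested probe sets, 9.84% lower and 4.98% higher. The median log2 fold change of the markers was -0.17, beside -0.0028 over all tested probe sets, with 7 markers below 0 and 3 above. The markers' median was -0.0755 after each array was centred on the median of its tested probe sets, which adds 0.09 to every log2 fold change. It was -0.10 without control replicate 2. Below, centring means this step. At an unadjusted p under 0.05, 3 markers were lower and 1 was higher. Every hCT1 sample lay below every control sample for Lyz2 and Aif1, 2 of 10 markers beside 20.5% of all tested probe sets, and above for Laptm5 and Mrc1, 2 of 10 beside 13.9%. The split between higher and lower calls moved with the scaling. Of all calls, 33.6% were higher in the deposited values and 44.4% after another quantile normalization. The share was 46.1% after cyclic loess and 75.1% after centring. Under these 3 scalings the markers gave 0, 1 and 2 higher calls and 2, 2 and 1 lower calls, respectively.

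**Figure D1:**
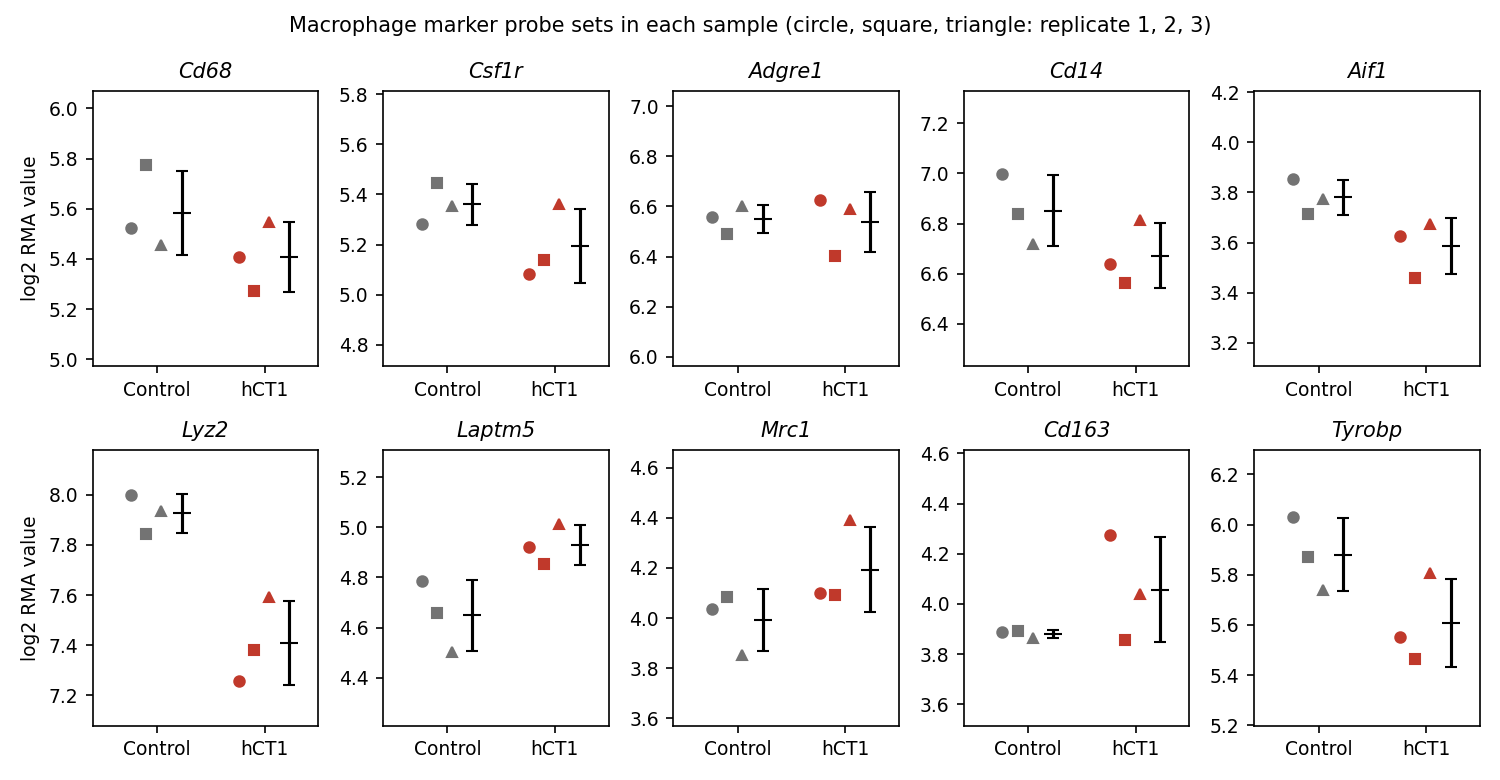
Grey (control) and red (hCT1) symbols give the log2 RMA value of each marker probe set in the 6 samples, with the mean and SD in black beside them. Every panel spans 1.1 log2 units. Lyz2 lies wholly lower with hCT1 (7.41 against 7.93 on average), Laptm5 wholly higher (4.93 against 4.65), and Adgre1 overlaps.

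The promoters of the markers that passed the test are shown because their genes moved in opposite directions. They are taken from RefSeq (build GRCr8), 5′ to 3′ on the gene's strand, and end at the last base before the annotated gene. Capitals mark matches to any of the motifs searched.

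Lyz2 (chr7:54798061-54798261, minus strand): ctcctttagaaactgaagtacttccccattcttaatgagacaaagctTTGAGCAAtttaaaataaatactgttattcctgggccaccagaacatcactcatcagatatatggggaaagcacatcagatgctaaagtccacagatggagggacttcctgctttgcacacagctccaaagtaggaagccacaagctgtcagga

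Laptm5 (chr5:148371630-148371879, plus strand): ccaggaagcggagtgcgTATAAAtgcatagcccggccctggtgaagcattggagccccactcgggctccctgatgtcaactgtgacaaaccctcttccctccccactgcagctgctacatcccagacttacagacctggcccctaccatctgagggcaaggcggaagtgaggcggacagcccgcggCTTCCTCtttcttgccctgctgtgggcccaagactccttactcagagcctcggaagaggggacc

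The match in the Lyz2 promoter is a C/EBP core (TTGCNNAA), read on the opposite strand. Those in the Laptm5 promoter are the letters of a TATA box (TATAAA) and, nearer the gene and on the opposite strand, a PU.1 core (GAGGAAG). Their first bases lie at -233 and -64 from the start, respectively. C/EBP factors and PU.1 are known regulators of myeloid genes. Over windows from 250 bases before to 50 bases after each start, searched on both strands, 8 of the 10 markers had an entry, and Aif1 and Tyrobp are only named. GAGGAAG was present in 6 of these 8 (Adgre1, Cd14, Cd68, Csf1r, Laptm5 and Mrc1), beside 12.4% of all 33469 windows. TTGCNNAA was present in Adgre1 and Lyz2, 2 of 8 beside 10.6%. The STAT core (TTCNNNGAA), of interest since the IL-6 family signals through STAT3, was present in Adgre1, 1 of 8 beside 8.87%, and TATAAA in Laptm5, 1 of 8 beside 14.2%. No motif here overlapped another. A match is a run of letters and was not tested as a binding site. The markers that hold GAGGAAG include Laptm5, which was higher, and 5 that did not pass the test.

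Lyz2, which encodes the lysozyme of macrophages and granulocytes (probe set 10902547, gene at chr7:54792715-54798060 in GRCr8), showed the largest difference of the 10 markers. Its log2 values were 8.0, 7.85 and 7.93 in control samples 1, 2 and 3, and 7.26, 7.38 and 7.59 in hCT1 samples 1, 2 and 3. The highest hCT1 sample thus lay below the lowest control sample. The mean was 7.93 ± 0.08 in control and 7.41 ± 0.17 in hCT1 samples (SD, n = 3 each). This is a log2 difference of -0.52 (SE 0.09, 95% interval -0.71 to -0.32, adjusted p = 0.00504 from limma), or 1.43-fold lower with hCT1. Its log2 fold change lay at percentile 1.19 of those of all tested probe sets, counted from the lowest. Without any 1 sample the log2 fold change lay between -0.61 and -0.44 with every call kept. The methods name a one-way test for comparisons of several groups and no test for the arrays. Once adjusted over all tested probe sets, that one-way test did not call Lyz2 (adjusted p = 0.0775, against limma's 0.00504). An exact permutation test of 3 against 3 samples cannot go below p = 0.1 and was not used. RMA values compress the folds of dim probe sets, so folds are those of the array scale.

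Cd68, a heavily glycosylated protein of the macrophage lysosome and endosome, did not pass. Its log2 values were 5.52, 5.77 and 5.46 in control samples and 5.41, 5.27 and 5.55 in hCT1 samples. The groups overlapped, since hCT1 sample 3 lay above control samples 1 and 3. The log2 fold change was -0.17 (SE 0.10, 95% interval -0.39 to 0.04, adjusted p = 0.262 from limma), so a fall to 0.761-fold and a rise to 1.03-fold both lie within the interval. It was -0.08 without control replicate 2 and also after centring.

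Laptm5, which encodes a lysosomal membrane protein of blood cells (probe set 10872489, gene at chr5:148371880-148393927 in GRCr8), was the marker that rose. It measured 4.79, 4.66 and 4.5 on the log2 scale in control samples and 4.92, 4.85 and 5.01 in hCT1 samples. The groups did not overlap, although control sample 1 and hCT1 sample 2 differed little. The log2 fold change was 0.28 (SE 0.08, 95% interval 0.10 to 0.46, adjusted p = 0.0452 from limma), or 1.22-fold. The call rested on few values: without control replicate 2 or 3, or any hCT1 replicate, the adjusted p from limma lay between 0.0651 and 0.133, without control replicate 1 it was 0.0308, and with another quantile normalization it was 0.0504.

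Csf1r encodes the receptor of CSF1 and IL-34, on which macrophages depend for survival. On the log2 scale it was 5.28, 5.45 and 5.35 in control samples and 5.08, 5.14 and 5.36 in hCT1 samples. In hCT1 samples 1 and 2 it lay below every control sample, and in hCT1 sample 3 within them. The log2 fold change was -0.17 (SE 0.08, 95% interval -0.35 to 0.02, adjusted p = 0.209 from limma). It was -0.07 after centring, -0.11 without hCT1 replicate 1 and -0.25 without hCT1 replicate 3. Of its ligands, Csf1 was 9.75 ± 0.02 in control and 9.84 ± 0.04 in hCT1 samples (SD, n = 3 each; adjusted p = 0.329 from limma), and Il34, at percentile 19.4 of signal, did not pass either (log2 fold change 0.10, adjusted p = 0.355 from limma).

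Tyrobp encodes the ITAM adaptor DAP12. Its log2 values were 6.03, 5.87 and 5.74 in control samples and 5.55, 5.46 and 5.81 in hCT1 samples. The groups overlapped through hCT1 sample 3 alone, which lay above control sample 3. Its log2 fold change was -0.27 (SE 0.10, 95% interval -0.50 to -0.05, adjusted p = 0.104 from limma), and without hCT1 replicate 3 it was -0.37 and passed (adjusted p = 0.0428 from limma). After centring it was -0.18. Fcer1g, which encodes the other main ITAM adaptor of myeloid cells, had a similar log2 fold change of -0.27 that did not pass (adjusted p = 0.11 from limma). Trem2, which encodes a receptor that signals through the Tyrobp product, was at 4.64 ± 0.05 and 4.63 ± 0.05 (SD, n = 3 each).

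Cd14 encodes the co-receptor that hands bacterial lipopolysaccharide (LPS) to Toll-like receptor 4. On the log2 scale it was 7.0, 6.84 and 6.72 in control samples and 6.64, 6.56 and 6.81 in hCT1 samples. As with Tyrobp, hCT1 sample 3 was the sample that lay among the controls. Its log2 fold change was -0.18 (SE 0.09, 95% interval -0.38 to 0.02, adjusted p = 0.209 from limma). It was -0.11 without control replicate 1 and also after another quantile normalization, and -0.0853 after centring.

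Adgre1 encodes the adhesion receptor F4/80, a classical surface marker of rodent macrophages. Its log2 values were 6.56, 6.49 and 6.60 in control samples and 6.62, 6.40 and 6.59 in hCT1 samples, which overlapped fully. The log2 fold change was -0.01 (95% interval -0.17 to 0.15, adjusted p = 0.939 from limma), and it turned positive under 6 of the 19 alternatives, so no direction is given.

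Mrc1 and Cd163 mark tissue-resident and alternatively activated macrophages, the former as a receptor for mannose-bearing glycoproteins and the latter as the receptor for hemoglobin bound to haptoglobin. Mrc1 was 4.04, 4.09 and 3.85 in control samples and 4.10, 4.09 and 4.39 in hCT1 samples. The groups were barely separated, control sample 2 and hCT1 samples 1 and 2 lying almost level, and hCT1 sample 3 stood highest. Its log2 fold change was 0.20 (SE 0.09, 95% interval -0.01 to 0.42, adjusted p = 0.188 from limma). It passed after centring (0.30, adjusted p = 0.0428 from limma), and it was 0.10 without hCT1 replicate 3 and 0.13 without control replicate 3. Cd163 was 3.89, 3.89 and 3.86 in control samples and 4.27, 3.86 and 4.04 in hCT1 samples. It was nearly level in controls (SD 0.02) and spread in hCT1 samples (SD 0.21), with hCT1 sample 2 just below the lowest control sample and the others above every control sample. Its log2 fold change was 0.18 (95% interval -0.04 to 0.39, adjusted p = 0.249 from limma). This value rested on single samples: it was 0.0671 without hCT1 replicate 1, 0.28 without hCT1 replicate 2 and 0.27 after centring. Both lay in the dim part of the array, Mrc1 at percentile 28.2 and Cd163 at 26.4 in controls.

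Aif1 encodes IBA1, a calcium-binding protein of the macrophage cytoskeleton. It read on the log2 scale 3.85, 3.71 and 3.77 in control samples and 3.62, 3.46 and 3.67 in hCT1 samples. The groups did not overlap, but the log2 fold change of -0.19 (SE 0.07, 95% interval -0.36 to -0.03) did not pass (adjusted p = 0.101 from limma). It passed after another quantile normalization (-0.24, adjusted p = 0.0409 from limma) and after cyclic loess (-0.23, adjusted p = 0.0420 from limma). After centring it was -0.0998 and did not pass (adjusted p = 0.314 from limma). At percentile 25.0 of signal in controls, Aif1 was the dimmest marker.

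**Figure D2:**
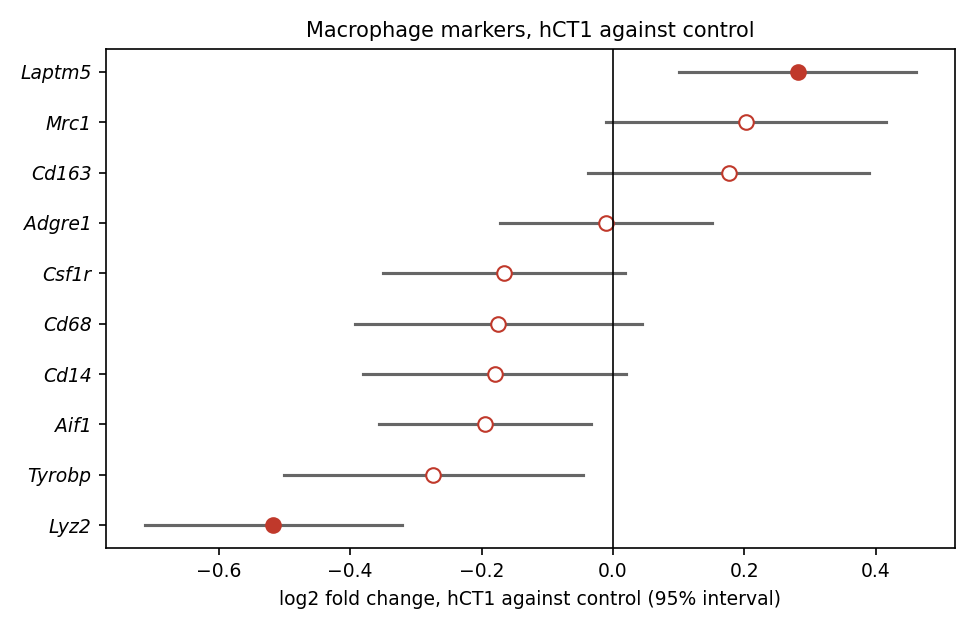
For each marker the log2 fold change (hCT1 over control) is drawn with its 95% interval from limma. Filled points passed an adjusted p of 0.05. Lyz2 (-0.52) and Laptm5 (0.28) are filled, and the intervals of Tyrobp and Aif1 also lie wholly below 0 although their adjusted p did not pass.

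Differences between groups varied with signal over the whole array. Among tested probe sets between percentile 20 and 40 of mean signal, where Mrc1, Cd163 and Aif1 lay, the median log2 fold change was 0.05 and 68.3% were above 0. Between percentile 40 and 60, which held Tyrobp, Cd68, Csf1r and Laptm5, the median was -0.02, and between 60 and 80, which held Cd14, Lyz2 and Adgre1, it was -0.08 with 31.9% above 0. Thus Mrc1 and Cd163 (0.20 and 0.18) had the sign most common among probe sets of like signal, and so did Lyz2 (-0.52), Cd14 (-0.18) and Adgre1 (-0.01, with no settled direction), and Tyrobp, Cd68 and Csf1r (-0.27, -0.17 and -0.17), in whose band 45.9% were above 0. Aif1 (-0.19) and Laptm5 (0.28), one of the 2 called markers, had the less common sign. The part of this trend in the marker values was not tested. After cyclic loess, a normalization chosen after this trend was seen that removes such differences, Lyz2 was at -0.46 and Laptm5 at 0.26, with adjusted p = 0.00803 and 0.0495 from limma.

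Within a group, the markers tended to be high or low in the same sample. In hCT1 sample 2 all 10 markers lay below the hCT1 mean, and in hCT1 sample 3 9 of 10 lay above it. Among controls, 8 of 10 were above the mean in control sample 1 and 8 of 10 below it in control sample 3. In control samples 1 and 3, 56.3% and 45.9% of all tested probe sets lay above the group mean. Of those between percentile 20 and 80 of mean signal, where all 10 markers lay, 61.5% and 43.5% did. After the group means were subtracted, 43 of the 45 pairs of markers had a positive Pearson's r over the 6 samples, with a median of 0.48. This is a description: the 6 points leave few degrees of freedom, and the probe sets share their arrays. Over all tested probe sets the median deviation was -0.01 in hCT1 sample 2 and -0.001 in hCT1 sample 3, beside -0.12 and 0.14 over the markers. In the signal bands of percentile 20 to 40, 40 to 60 and 60 to 80, it was -0.05, -0.03 and -0.003 in hCT1 sample 2. In hCT1 sample 3 it was 0.002, 0.007 and -0.003. The share above the group mean in hCT1 samples 2 and 3 was 42.9% and 49.4% for all tested probe sets. Between percentile 20 and 80 it was 38.8% and 50.4%. For the other macrophage and leukocyte genes described below it was 21 and 45 of 71. Without group means subtracted, 31 of 45 pairs were positive with a median of 0.15, since Laptm5, Mrc1 and Cd163 differed in the opposite direction between groups.

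**Figure D3:**
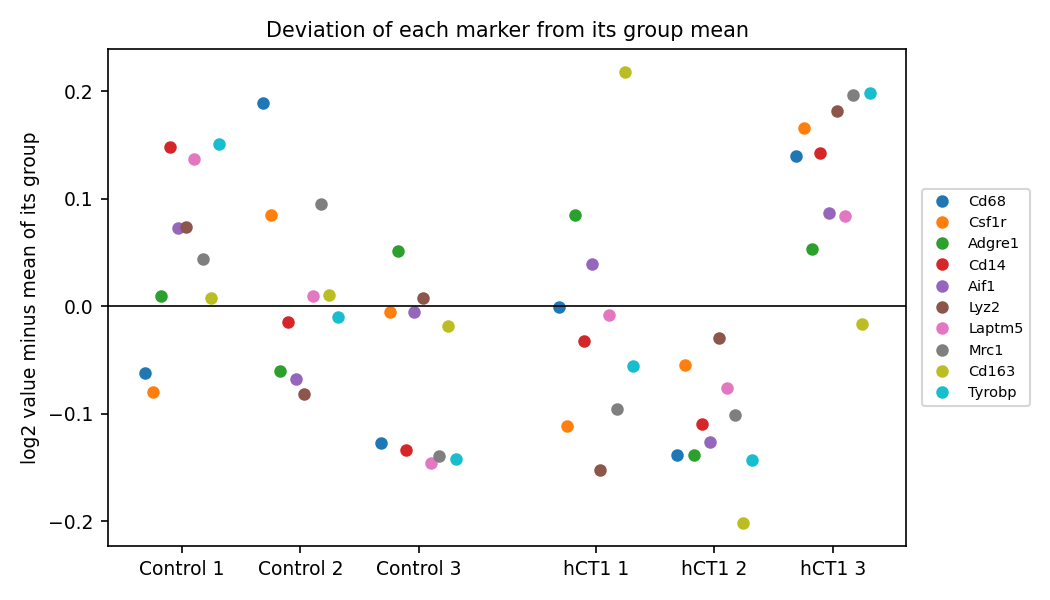
Each point is the log2 value of 1 marker in 1 sample minus the mean of its group (3 samples), with 10 markers side by side above each sample name. All points of hCT1 2 lie below 0 and 9 of 10 points of hCT1 3 above it, by up to 0.20 in either direction.

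The tested probe sets whose pattern over the 6 samples was most like the mean of the 10 markers were Clxn (Pearson's r 0.99), St8sia6 (0.987), Fam117b (0.983), Arrb2 (0.977) and Sall3 (0.975). Clxn was 4.86, 4.77 and 4.66 in control samples and 4.59, 4.49 and 4.80 in hCT1 samples, thus lowest in hCT1 sample 2 and high in control sample 1 and hCT1 sample 3. None of these 5 passed the test between groups (adjusted p 0.352 to 0.610 from limma). They were picked as the highest of all tested probe sets outside the markers, over 6 samples whose arrays they share, and only their likeness is given.

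Other macrophage and leukocyte genes were read in 12 lists by role, each gene by its brightest probe set. Of 79 genes listed, 71 were measured: 9 rose with hCT1, 4 fell and 58 did not pass. Which cells of the cultures gave these values was not tested. Their log2 fold changes had a median of 0.05. The count of 13 among 71 stands beside the 14.8% called over all tested probe sets. By direction, 9 of 71 were higher, beside 4.98% of all tested probe sets, and 4 of 71 were lower, beside 9.84%. These shares varied with signal. Between percentile 20 and 40 of mean signal, 3.14% of tested probe sets were called higher and 1.03% lower. Between 40 and 60 it was 5.0% and 11.3%, and between 60 and 80 it was 4.79% and 17.5%. Of the 71 genes, 37 had a mean signal at or above percentile 40. Pearson's r between samples over all 29215 probe sets of the array was 0.997 to 0.998 within groups and 0.994 to 0.996 between them.

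In the list of LPS recognition, 3 of 5 genes were higher and 0 lower. Lbp, which encodes the LPS-binding protein of the acute phase response that delivers LPS to CD14, rose 1.94-fold, from 6.21 ± 0.06 to 7.17 ± 0.14 (adjusted p = 8.58e-05 in limma's fit; SD, n = 3 each). Tlr2, the receptor for bacterial lipoproteins, rose from 5.11 ± 0.11 to 5.73 ± 0.18, and Myd88, the shared adaptor of these receptors, from 7.67 ± 0.02 to 8.12 ± 0.09 (SD, n = 3 each). Tlr4 was at 6.67 and 6.66, and its partner Ly96 at 7.0 and 7.11, neither of which passed, like Cd14. These genes are also made by cells other than macrophages.

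In the list of growth factors and receptors around CSF1, 1 of 6 genes rose. Csf2rb, the beta chain shared by the receptors for GM-CSF, IL-3 and IL-5, was 7.05, 7.15 and 6.83 in control samples and 8.29, 8.35 and 8.36 in hCT1 samples. Its log2 fold change of 1.33 (SE 0.08, 95% interval 1.14 to 1.51, adjusted p = 1.62e-05 from limma) was the largest among the 71 genes and amounts to 2.51-fold. The partner chain gene Csf2ra had a log2 fold change of -0.15 and did not pass (adjusted p = 0.29 from limma). The difference between these chains was not tested.

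In the list of C1q and anaphylatoxin receptors, 1 of 5 fell: C3ar1, the receptor for the complement fragment C3a, from 7.32 ± 0.14 to 6.47 ± 0.04 (log2 fold change -0.85, adjusted p = 0.000154 in limma's fit; SD, n = 3 each). In the phagocyte oxidase, the enzyme that makes superoxide, 2 of 4 fell: the organizer subunit gene Ncf1 by 0.76 on the log2 scale (adjusted p = 4.68e-05 from limma) and Cyba, the smaller chain of the membrane core, by 0.40. The catalytic chain gene Cybb had a log2 fold change of -0.05 (adjusted p = 0.785 from limma). In the lysosome list, 1 of 5 fell, the cathepsin S gene Ctss (-0.31), and 1 rose, the legumain gene Lgmn (0.40). When control replicate 1 or 2, or else hCT1 replicate 1 or 2, was left out, C3ar1 and Ncf1 were the 2 genes of the 71 that stayed called lower. Ctss was not called without hCT1 replicate 3 or after centring.

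Of the genes that rose elsewhere, Runx1, a transcription factor of blood stem cells and myeloid cells, was 1 of 5 lineage factors (log2 fold change 0.25), while Spi1 was at -0.01 (adjusted p = 0.944 from limma). In the list of ITAM receptors and kinases 2 of 7 rose, the Src family kinase gene Fgr (0.32) and Inpp5d (0.28), which encodes the lipid phosphatase SHIP1. Of 14 pan-leukocyte genes 1 rose, Rac2 (0.37), and Ptprc was at 3.67 ± 0.02 and 3.65 ± 0.06 (SD, n = 3 each; adjusted p = 0.858 from limma). The call of Runx1 was lost when any 1 of the 6 samples was left out, that of Fgr without control replicate 1, that of Inpp5d without control replicate 2 or hCT1 replicate 3, and that of Rac2 without control replicate 2 or any hCT1 replicate. Fgr lay at percentile 31.4 and Inpp5d at 39.4 of signal in controls.

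In 4 lists no gene passed. The largest differences were 0.22 for Fcgr3a and 0.10 for Fcgr2b among 3 Fc receptors, and 0.27 for Lyve1 and 0.23 for Mertk, receptors of resident macrophages that endothelium or other cells can also make, among 7 scavenger and uptake receptors. They were 0.18 for Ccr1 and 0.05 for Cx3cr1 among 3 chemokine receptors, and -0.16 for Il1b and 0.13 for Nos2 among 7 genes of cytokines and activation. For Lyve1 and Mertk, the adjusted p from limma was 0.0727 and 0.0841.

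**Figure D4:**
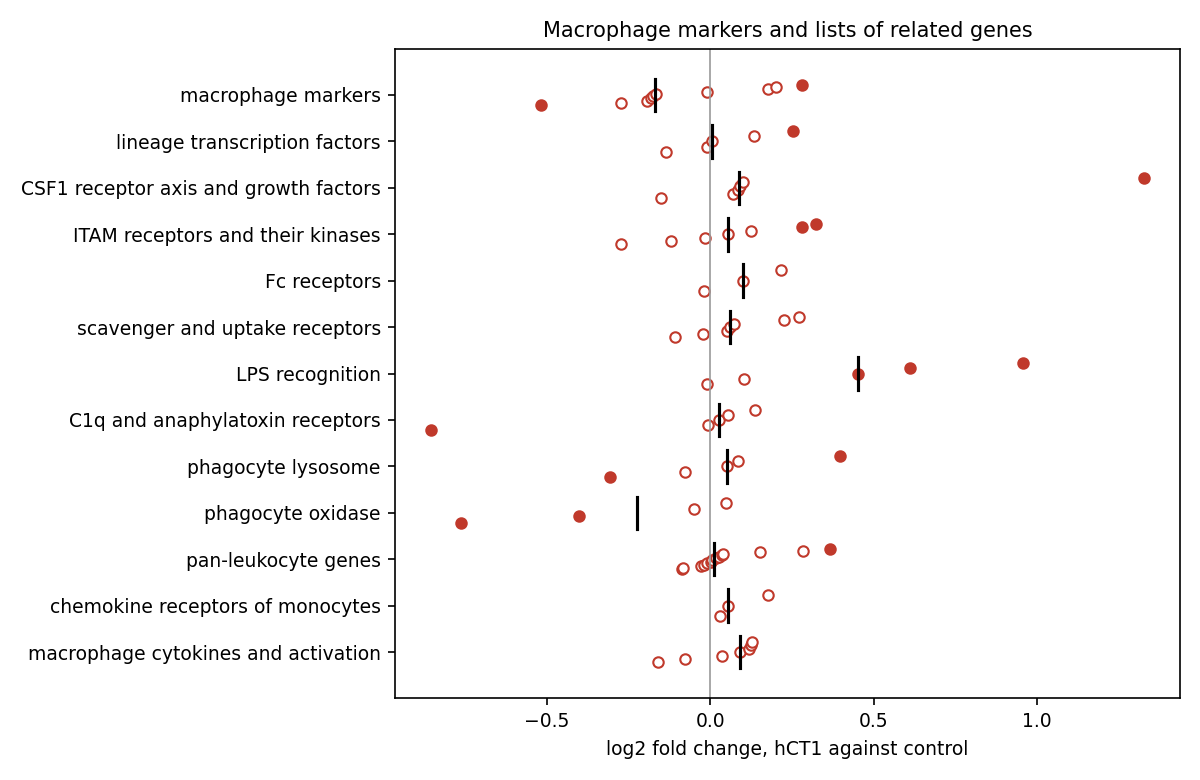
Points give, gene by gene, the log2 fold change between hCT1 and control samples for the macrophage markers and 12 lists of related genes. Filling marks genes past limma's adjusted p of 0.05, and black lines are list medians. Csf2rb stands at 1.33 on the right, C3ar1 at -0.85 and Ncf1 at -0.76 on the left, and the medians lie between -0.23 (oxidase) and 0.45 (LPS recognition).

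Markers of the other cells in such cultures gave the setting for these values. Of 10 cardiomyocyte genes 2 were lower, the myosin gene Myh6 (-0.45) and the troponin gene Tnnc1 (-0.31), and the mean log2 value of the list was 11.05 to 11.08 in controls and 10.92 to 10.96 in hCT1 samples, which did not overlap. Of 10 fibroblast genes 0 passed limma's test, with Dcn at 0.18 and Col3a1 at -0.17, and at an unadjusted p under 0.05 1 was higher and 2 were lower. By the same list measure, the 10 macrophage markers had a mean of 5.38 to 5.5 in controls and 5.25 to 5.48 in hCT1 samples, which overlapped. Of 9 endothelial genes 1 was lower (Emcn, -0.47), and of 6 smooth muscle genes 3 were lower (Myh11, -0.39, Smtn, -0.36, and Tagln, -0.30). These counts stand beside 9.84% called lower over all tested probe sets. The share called lower was 17.5% between percentile 60 and 80 of mean signal and 12.1% between 80 and 100. The part of cell makeup in the marker differences was not tested.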

How the data were processed

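Gene expression was measured in 6 samples of primary neonatal rat cardiomyocytes, 3 control and 3 hCT1, with 1 Affymetrix whole-transcript array each. The authors processed the arrays with RMA in Affymetrix Expression Console (versions not given in the sources used here), which corrects background, normalizes quantiles and summarises probes, and deposited log2 values, which were used as deposited. The number of arrays limits the precision.

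Of 29215 probe sets, 15310 were paired with exactly 1 symbol, 323 with several and 13582 are unnamed here; symbols of 15279 were checked against RefSeq (GRCr8) by Entrez identifier. Groups were compared with limma (version 3.58.1, R 4.3.3; lmFit, then eBayes; 2-sided, Benjamini-Hochberg over the 15310, threshold 0.05), a step tested on simulated data. The alternatives were other tests, thresholds, filters, feature sets and normalizations, leaving out each sample, and a replicate block.

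The markers and gene lists were chosen with earlier results of these data known. All markers are named; of other lists, the genes that passed (at most the 4 largest) or else the 2 largest differences, plus ligands, partners and defining genes named for their role after values were seen. The 5 probe sets of highest r with the markers' mean are named.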

Additional observations from a re-analysis of the deposited data

How the results depend on the processing

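Across 19 alternatives, Lyz2 stayed lower (log2 fold change -0.61 to -0.42, adjusted p from limma or the one-way test 0.000666 to 0.0775) and lost its call under the adjusted one-way test alone. Laptm5 stayed higher (0.21 to 0.38) and lost its call in 10. The count of markers called higher, 1, was 0 under the adjusted one-way test, with all probe sets tested and after another quantile normalization. It was also 0 with a replicate block and at a threshold of 0.01. After centring each array on the median of its tested probe sets, it was 2 (Laptm5 and Mrc1). It was 0 to 1 when 1 sample was left out. The count called lower, 1, was 0 under the adjusted one-way test and 2 after another quantile normalization or cyclic loess (Lyz2 and Aif1), and 1 to 2 when 1 sample was left out, 2 without hCT1 replicate 3. The markers' median of -0.17 was -0.0755 after centring, which adds 0.09 to every log2 fold change, and -0.24 to -0.10 when 1 sample was left out. Adgre1 turned positive with array weights (0.0110), another quantile normalization (0.0568), cyclic loess (0.0443), centring (0.0845), without Control replicate 3 and without hCT1 replicate 2, and lay between -0.0528 and 0.0588 when 1 sample was left out. Of the other 71 genes, 9 were higher, against 4 under the adjusted one-way test, 14 after centring, 5 at a threshold of 0.01 and 6 to 8 when 1 sample was left out. The 4 lower were 2 under the adjusted one-way test, with all probe sets and at 0.01, and 2 to 5 when 1 sample was left out. Over all tested probe sets, 2268 calls became 3950 by the unadjusted one-way test, 1051 by the adjusted one, 1500 with the replicate block, 859 at 0.01 and 3435 at 0.10. They were 1242 to 2683 when 1 sample was left out: 1266, 1242 and 2683 without Control replicates 1, 2 and 3, and 1319, 1313 and 1506 without hCT1 replicates 1, 2 and 3. Deviations of same-numbered samples correlated at -0.03, 0.05 and -0.28 for replicates 1, 2 and 3, so the numbers were not taken as pairs. With the replicate block Laptm5 had an adjusted p of 0.0795 from limma, and 8 of the other genes were higher and 3 lower. The causes of these changes were not tested. The 3 arrays per group limit the precision, and the table gives no signal over background.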

Other observations

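In the 5 lists of other blood cells, 2 genes passed the test, both higher with hCT1 and both among the 8 genes measured of the mast cell list. Over all tested probe sets, 14.8% were called in either direction and 4.98% were called higher. None of 7 T and NK cell genes passed limma's test (1 higher and 0 lower at an unadjusted p under 0.05), with Prf1, which encodes perforin, at a log2 fold change of 0.30 (adjusted p = 0.134 from limma) and Cd2 at 0.11, and all 7 lay below percentile 40 of signal in controls. None of 2 B cell genes (Ms4a1 0.14, Cd79b 0.10) or 6 neutrophil genes (Mpo 0.18, Camp 0.14) passed, and at an unadjusted p under 0.05 these gave 0 and 1 higher. Of 8 mast cell genes 2 rose, Kit, the stem cell factor receptor (0.54, adjusted p = 0.000732 from limma), and Ms4a2, the beta chain of the IgE receptor (0.21, adjusted p = 0.0424 from limma), the latter at percentile 8.0. Kit is also expressed by other cells. The other 6 mast cell genes did not pass, among them Mcpt1, Cma1 and Cpa3, at percentiles 4.2, 5.6 and 5.8 of signal in controls. Of the 8 mast cell genes, 7 lay below percentile 40. Of 5 erythroid and platelet genes 0 passed limma's test (1 higher at an unadjusted p under 0.05), with Gp9 at 0.22 and Epb42 at 0.14. The pan-leukocyte gene Cd48 lay at percentile 95 of signal in controls, 10.13 in both groups, while Ptprc lay at percentile 23.2, and both were singled out after their values were seen.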
